A study of Mus musculus with 4 samples.

Results

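Dorsal root ganglia hold the cell bodies of the sensory neurons that report pain, temperature, touch and limb position. The 10 genes described here are transcription factors and markers that set or mark these fates. They are Isl1, Pou4f1, Pou4f2, Runx1, Runx3, Etv1, Prrxl1, Shox2, Maf and Pvalb, chosen by symbol from the 23282 gene rows of the count tables. Each symbol stood on 1 row, and 6 of the 10 had a read in at least 1 library.

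As background, newborn sensory neurons of the mouse first share the homeodomain factors Pou4f1 (Brn3a) and Isl1, which together close the neurogenic programme and open the subtype programmes. Runx1 then marks the lineage of nociceptors, the pain-sensing neurons. Runx3 marks proprioceptors, the neurons of limb position, with Etv1 and Pvalb acting or appearing later in that lineage, while Shox2 and Maf belong to touch-sensing mechanoreceptors.

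RNA was counted in 4 libraries of ganglion explants from C57BL/6 mouse embryos of embryonic day 13, grown on Matrigel in growth medium and moved to myelination medium on day in vitro (DIV) 8. The ES groups, harvested at 19 and 11 DIV, were stimulated electrically for 1 h at 20 Hz and 50 mV/mm on DIV 10, and the control groups of the same 2 days were not stimulated. Each group was 1 library from 3 pooled explants, so no difference between libraries has a replicate check, and a difference between days or treatments cannot be told apart from a difference between explant pools. All groups carried the neurons, glia and connective tissue that an explant keeps, and in such bulk RNA fewer cells of a type and less RNA per cell cannot be told apart.

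The libraries held 5782834 to 7830950 reads. Values are CPM, read counts relative to library size after TMM scaling. With independent reads, a gene at 0 could hold up to 3 reads, which were 0.376 to 0.518 CPM. The reads may have been clumped, however. From the share of 0 counts among rows expected at 200 to 1000 reads, 1 sampled molecule was estimated to stand for 104.1 to 157.6 reads, or 17.98 to 20.27 CPM, if every such 0 came from sampling. A ratio between libraries is therefore given with a pair of intervals. The counting interval (exact Clopper-Pearson, 95%) treats each read as a molecule, and the spread-adjusted interval (95%) is the same on counts divided by 208 to 235 for ES against control and 230 to 258 for 19 against 11 DIV, the observed spread between the 2 libraries relative to counting error. By the counting rule a gene was called at 2-fold or more, with 50 reads or more in the library of higher level and a counting interval clear of equality. For the spread-adjusted rule, fold and reads were the same but a 99% spread-adjusted interval had to be clear of equality. Reads were not compared between genes, since no level per transcript length was available.

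The labelled tissue was checked against markers. All 20 pan-neuronal markers had reads in at least 1 library, and their summed level was 2566 CPM in ES and 5479 CPM in control on DIV 19, and 6605 CPM in ES and 4146 CPM in control on DIV 11. Motor neuron markers of the spinal cord summed to 0 CPM in ES and 1.89 CPM in control on DIV 19, and to 2.87 CPM in ES and 0 CPM in control on DIV 11, with Mnx1 and Lhx3 at 0 in every library. Of 8 markers of spinal interneurons, 7 were at 0 in all 4 libraries, and Gad1 had 68 reads (9.86 CPM) in control on DIV 19 only. Of all rows 44.7% had 0 reads in every library. With 1 molecule estimated at 17.98 to 20.27 CPM, low levels of such markers were not detectable. Isl1 is known in spinal motor neurons too, and Pou4f1 and Shox2 in some spinal interneurons.

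Pou4f1, the homeodomain factor shared by nearly all sensory neurons (ENSMUSG00000048349.9, protein-coding, minus strand, chr14:104461676-104467999 in GRCm38), was read on DIV 19 and almost not on DIV 11. It had 413 reads in ES and 674 in control on DIV 19, against 10 in ES and 0 in control on DIV 11. Both libraries of 19 DIV were above both of 11 DIV, an order whose share over all rows was not counted. The levels were 51.7 CPM in ES and 97.8 CPM in control on DIV 19, and 1.69 CPM in ES and 0 CPM in control on DIV 11. In ES cultures Pou4f1 was 30.6-fold higher on DIV 19 than on DIV 11 (counting interval 16.5 to 64.4), and in control cultures it was at least 189-fold higher with the 0 put at 3 reads, a bound that holds only if reads are independent. The lower ends of the spread-adjusted intervals, 0.0792 in ES and 0.334 in control, lay below equality.

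Runx3, the Runt-domain factor of proprioceptors (ENSMUSG00000070691.10, protein-coding, plus strand, chr4:135120652-135177990), showed the same split by day. It had 168 reads in ES and 276 in control on DIV 19, against 0 in both libraries on DIV 11. The levels were 21.04 CPM in ES and 40.0 CPM in control on DIV 19. With 0 put at 3 reads, Runx3 was at least 41.5-fold higher on DIV 19 in ES and at least 77.3-fold higher in control. The spread-adjusted lower ends were 0.00255 in ES and 0.0409 in control, and at the estimated reads per molecule the 19 DIV values stood for about 1.07 molecules in ES and 2.17 in control.

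Pou4f1 and Runx3 were thus read in both cultures of the later day whatever the treatment. The split was noticed in these data and then counted over all rows. Of the 5602 rows with at least 100 reads in both 19 DIV libraries, 130 (2.32%) had at most 10 reads in both 11 DIV libraries. The opposite split was as frequent, in 131 of 5364 rows (2.44%). Among the identity factors, 2 of the 4 that reached 100 reads in both 19 DIV libraries had the first split, and 0 of 2 that did so on DIV 11 had the opposite one. No gene of the 13 marker lists had either, but how many of them reached 100 reads in both libraries of a day was not counted. The receptor genes Ntrk3 (1118 reads in ES and 624 in control on DIV 19) and Ntrk2 (470 and 303) missed only the limit of 10. On DIV 11 Ntrk3 had 56 reads in ES and 0 in control, and Ntrk2 had 0 in ES and 43 in control. The split was noticed in Pou4f1 and Runx3 themselves, and the rows were not matched to them in reads, so these counts are no test. Pou4f1 met the limit of 10 reads exactly, with 10 in ES on DIV 11. At limits of 0 and 100 reads, or of 10 and 200, 1 member had the first split. The pan-neuronal sum did not split by day, being 0.388 times its 11 DIV value on DIV 19 in ES and 1.32 times in control. The Schwann and satellite glia sum was higher in both 19 DIV libraries, at 11359 CPM in ES and 14173 CPM in control, against 9323 CPM in ES and 5660 CPM in control on DIV 11. The fibroblast sum was so too, at 13668 CPM in ES and 9418 CPM in control on DIV 19, against 6988 CPM in ES and 5251 CPM in control on DIV 11. Their part in the split was not tested.

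**Figure D1:**
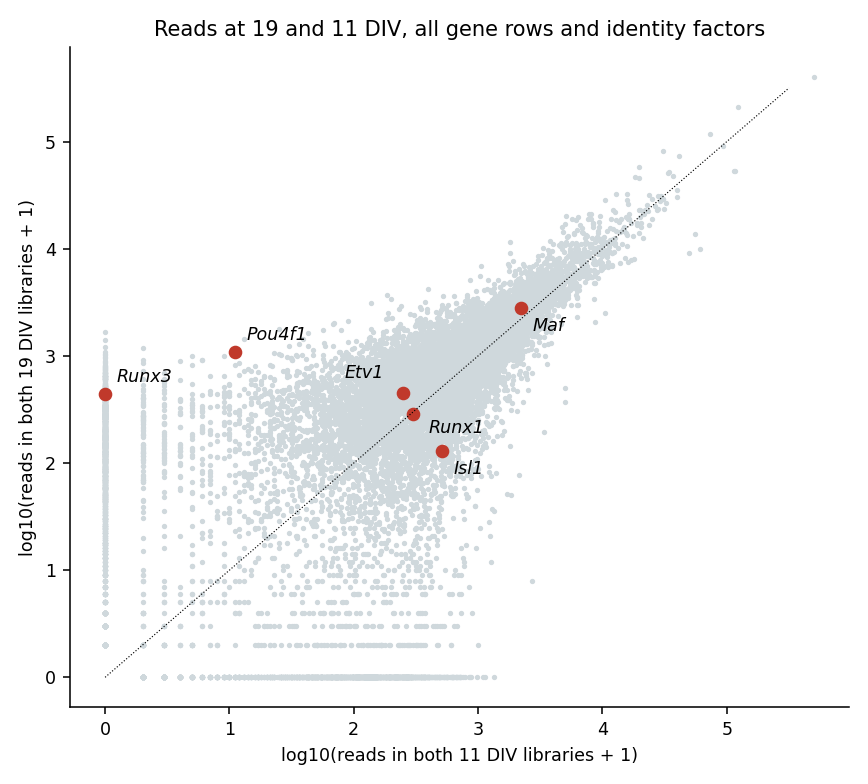
Reads summed over both libraries of 19 DIV (y axis) against both of 11 DIV (x axis), as log10(reads + 1), for each gene row with a read (grey) and the 6 detected identity factors (red), with equality dotted. Runx3 lies on the left edge at 0 reads on DIV 11 and Pou4f1 near it, while Maf and Runx1 lie near equality.

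In the fit across all 4 libraries with treatment and day as additive factors (edgeR quasi-likelihood, 10050 rows tested, 1 residual degree of freedom), 0 rows passed an adjusted p of 0.05 for day (0% of rows), 202 had an unadjusted p below 0.05, and 0 of the 6 detected members passed. The log2 day difference was 7.54 for Pou4f1 (edgeR, adjusted p = 1) and 10.61 for Runx3 (adjusted p = 1). DESeq2 on the same design called 832 rows (8.28%), Pou4f1 (adjusted p = 0.000726) and Runx3 (adjusted p = 0.0129) among them and no other member. With limma-voom, which called 0 rows (701 with an unadjusted p below 0.05), the adjusted p was 0.197 for Pou4f1 and 0.0988 for Runx3. Over the settings run the adjusted p thus ranged from 0.000726 to 1 for Pou4f1 and from 0.0129 to 1 for Runx3.

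The windows just before the annotated starts of these genes are shown because Pou4f1 and Runx3 were read together on DIV 19, and that of Isl1, the other shared early factor, because its reads split differently. Each is the 250 bases upstream of a RefSeq start (GRCm38.p6, gene strand, 5′ to 3′), and capitals mark matches on either strand to TGTGGTT (the letters bound by Runx factors, AACCACA on the other strand), TAATTA (a homeodomain core), CAGCTG (an E-box) or CAGATG (an E-box of neurogenic factors, CATCTG on the other strand). No marked matches overlap.
Pou4f1, chr14:104468000-104468249: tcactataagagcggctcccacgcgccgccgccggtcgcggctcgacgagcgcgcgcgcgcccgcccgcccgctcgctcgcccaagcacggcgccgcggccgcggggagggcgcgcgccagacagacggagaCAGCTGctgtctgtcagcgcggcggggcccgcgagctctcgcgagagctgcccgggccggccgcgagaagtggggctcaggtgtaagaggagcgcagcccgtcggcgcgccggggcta
Runx3, distal start, chr4:135120395-135120644: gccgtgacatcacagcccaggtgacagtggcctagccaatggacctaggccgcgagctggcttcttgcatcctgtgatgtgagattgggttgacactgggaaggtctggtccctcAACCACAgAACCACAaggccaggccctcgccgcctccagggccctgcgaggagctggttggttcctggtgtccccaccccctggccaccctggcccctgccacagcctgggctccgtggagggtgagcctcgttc
Isl1, chr13:116309689-116309938: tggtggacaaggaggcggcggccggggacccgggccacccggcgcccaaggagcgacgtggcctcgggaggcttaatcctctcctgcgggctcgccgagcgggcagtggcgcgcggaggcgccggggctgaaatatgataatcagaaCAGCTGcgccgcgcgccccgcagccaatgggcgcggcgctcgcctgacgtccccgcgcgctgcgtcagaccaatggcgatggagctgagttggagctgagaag

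The second, proximal Runx3 window (chr4:135152295-135152544, 78.8% G or C) held none of the motifs. The distal one held 2 Runx matches, starting 135 and 127 bases before the start, and 4.40% of all 32851 windows of this length held at least 1. The Pou4f1 and Isl1 windows each held 1 CAGCTG, at 118 and 103 bases before the start, letters found in 13.0% of windows. TAATTA (4.84% of windows) was in none of the 13 windows found for 9 of the 10 members, and CAGATG (14.4% of windows) was in 1 of those of Etv1. Of the other members Prrxl1 had a Runx match. The Pou4f1 window was 78% G or C, the distal Runx3 window 65.2% and the Isl1 window 71.2%, against a median of 52.4% over all windows. These matches describe letters only.

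Isl1, the LIM-homeodomain factor that works with Pou4f1 in early sensory neurons (ENSMUSG00000042258.13, protein-coding, minus strand, chr13:116298281-116309689), differed between ES and control in opposite directions on the 2 days. It had 0 reads in ES and 129 in control on DIV 19, against 479 in ES and 31 in control on DIV 11. At 11 DIV the level was 80.9 CPM in ES and 5.35 CPM in control, a 15.1-fold higher value in ES (counting interval 10.5 to 22.5). At 19 DIV it was 0 CPM in ES and 18.7 CPM in control, at least 49.8-fold lower in ES with 0 put at 3 reads. The ES library of 11 DIV was the highest of the 4 and the ES library of 19 DIV the lowest. The spread-adjusted intervals took in equality in both comparisons, with a lower end of 0.221 on DIV 11 and an upper end of 713 on DIV 19.

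The summed pan-neuronal markers lay on the same sides as Isl1, at 0.468 times control in ES on DIV 19 and 1.59 times control in ES on DIV 11. Their part in the Isl1 values was not tested. Per 1000 CPM of pan-neuronal markers, Isl1 stood at 0 CPM in ES and 3.42 CPM in control on DIV 19, and at 12.2 CPM in ES and 1.29 CPM in control on DIV 11. Isl1 thus kept its order in the 4 libraries on that scale too. By the same measure Pou4f1 was at 20.2 CPM in ES and 17.8 CPM in control on DIV 19, and at 0.256 CPM in ES and 0 CPM in control on DIV 11. Runx3 was at 8.20 CPM in ES and 7.31 CPM in control on DIV 19. Pou4f1 and Runx3, lower in ES than in control on DIV 19 by CPM, were thus slightly higher in ES on this scale. Runx1 was at 7.42 CPM in ES and 3.57 CPM in control on DIV 19, and at 3.78 CPM in ES and 6.25 CPM in control on DIV 11. Etv1 was at 17.9 CPM in ES and 2.14 CPM in control on DIV 19, and at 4.32 CPM in ES and 3.29 CPM in control on DIV 11, still higher in ES. Maf was at 53.7 CPM in ES and 45.5 CPM in control on DIV 19, and at 32.5 CPM in ES and 39.1 CPM in control on DIV 11, on the opposite sides to its CPM.

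Runx1, the Runt-domain factor of nociceptors (ENSMUSG00000022952.17, protein-coding, minus strand, chr16:92601466-92826149), was nearly even by CPM, though not per pan-neuronal marker level. It had 152 reads in ES and 135 in control on DIV 19, and 148 in ES and 150 in control on DIV 11. The levels ran from 19.0 to 25.9 CPM, the highest 1.36 times the lowest, and ES was at 0.972 times control on DIV 19 (counting interval 0.766 to 1.23) and 0.965 on DIV 11 (0.764 to 1.22). Of the 3551 rows with a mean of 100 to 300 reads, 23 (0.648%) had a highest level within 1.5 times the lowest. That limit was chosen after the Runx1 values were seen, so the share is no test. At the estimated reads per molecule, Runx1 stood for 0.964 molecules in ES and 1.06 in control on DIV 19, and for 1.23 in ES and 1.44 in control on DIV 11. The spread-adjusted intervals were accordingly wide, 0.00174 to 940 on DIV 19 and 0.00304 to 291 on DIV 11, and a level change of several fold in either direction was not detectable at this depth.

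Cbfb, the partner that both Runx factors bind DNA with and a gene named here outside the rule for list genes, had 780 reads in ES and 2590 in control on DIV 19, and 1154 in ES and 1040 in control on DIV 11. Its ES level was 0.260 times control on DIV 19 (spread-adjusted interval 0.0515 to 0.943), which passed the counting rule and not the spread-adjusted rule, and 1.09 times control on DIV 11 (0.265 to 4.58).

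Etv1 (ENSMUSG00000004151.17, protein-coding, plus strand, chr12:38779380-38870484), the ETS factor that proprioceptors need to connect to motor neurons, was higher in ES on both days by the counting rule. It had 366 reads in ES and 81 in control on DIV 19, and 169 in ES and 79 in control on DIV 11. Both ES libraries were above both control libraries, an order whose share over all rows was not counted. The control levels were 11.8 CPM on DIV 19 and 13.6 CPM on DIV 11. At the estimated reads per molecule, Etv1 stood for 2.32 molecules in ES and 0.638 in control on DIV 19. On DIV 11 it stood for 1.41 in ES and 0.759 in control. The ES level was 45.8 CPM on DIV 19, 3.90-fold higher than in control (counting interval 3.06 to 5.03), and 28.5 CPM on DIV 11, 2.09-fold higher (1.59 to 2.77). Neither day passed the spread-adjusted rule, with lower ends of 0.0685 on DIV 19 and 0.00748 on DIV 11. In the additive fit the ES log2 difference of Etv1 was 1.51 (edgeR, adjusted p = 1). Summed fibroblast markers were higher in ES on both days too, at 13668 CPM in ES and 9418 CPM in control on DIV 19, and at 6988 CPM in ES and 5251 CPM in control on DIV 11. Of these 12 markers 8 had reads in every library, and their part in the Etv1 values was not tested.

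Maf, a basic leucine zipper factor of touch neurons that Schwann cells and macrophages also express (ENSMUSG00000055435.6, protein-coding, minus strand, chr8:115682942-115707794), was the member with the most reads and the narrowest spread-adjusted intervals. It had 1101 reads in ES and 1717 in control on DIV 19, and 1270 in ES and 938 in control on DIV 11. The levels were 138 CPM in ES and 249 CPM in control on DIV 19, and 214 CPM in ES and 162 CPM in control on DIV 11. The control libraries held both the highest and, next to ES on DIV 19, the second lowest level, so the treatments overlapped. ES was at 0.554 times control on DIV 19 (spread-adjusted interval 0.134 to 2.03) and at 1.32 times control on DIV 11 (0.329 to 5.83). In 538 rows with a mean of 1000 to 1500 reads, 158 (29.4%) had a highest level within 2 times the lowest, as Maf did at 1.81 times. Summed macrophage markers were 143 CPM in ES and 86.2 CPM in control on DIV 19, and 77.1 CPM in ES and 185 CPM in control on DIV 11. None of these 15 genes was read in all 4 libraries, Aif1 and Cx3cr1 were at 0 in each, and the list lay on the opposite side of control to Maf on both days. Schwann and satellite glia markers lay on the same side as Maf on both days, their sum at 0.801 times control in ES on DIV 19 and 1.65 times on DIV 11, and so did the pan-neuronal sum at 0.468 and 1.59 times. The part of these cells in the Maf values was not tested. Maf, Runx1 and Runx3 each overlap an antisense gene, and without stated strand use the reads of such a pair cannot be told apart. Shox2, a member without reads, overlaps the protein-coding gene Rsrc1 on the opposite strand. Rsrc1 had 6 reads in ES and 1057 in control on DIV 19, and 910 in ES and 685 in control on DIV 11.

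The members without reads came from several fates. Pvalb, the calcium-binding protein that marks proprioceptors, Shox2, a homeodomain factor of touch neurons, Prrxl1 (Drg11), a paired-type homeodomain factor of ganglion and dorsal horn neurons, and Pou4f2 (Brn3b), a relative of Pou4f1 best known in retinal ganglion cells, had 0 reads in all 4 libraries. Of all rows 44.7% had 0 reads in every library, so 4 of 10 members was near that share. With independent reads each could stand at up to 0.376 to 0.518 CPM. As 1 molecule was estimated at 17.98 to 20.27 CPM, levels of a few molecules were not detectable.

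**Figure D2:**
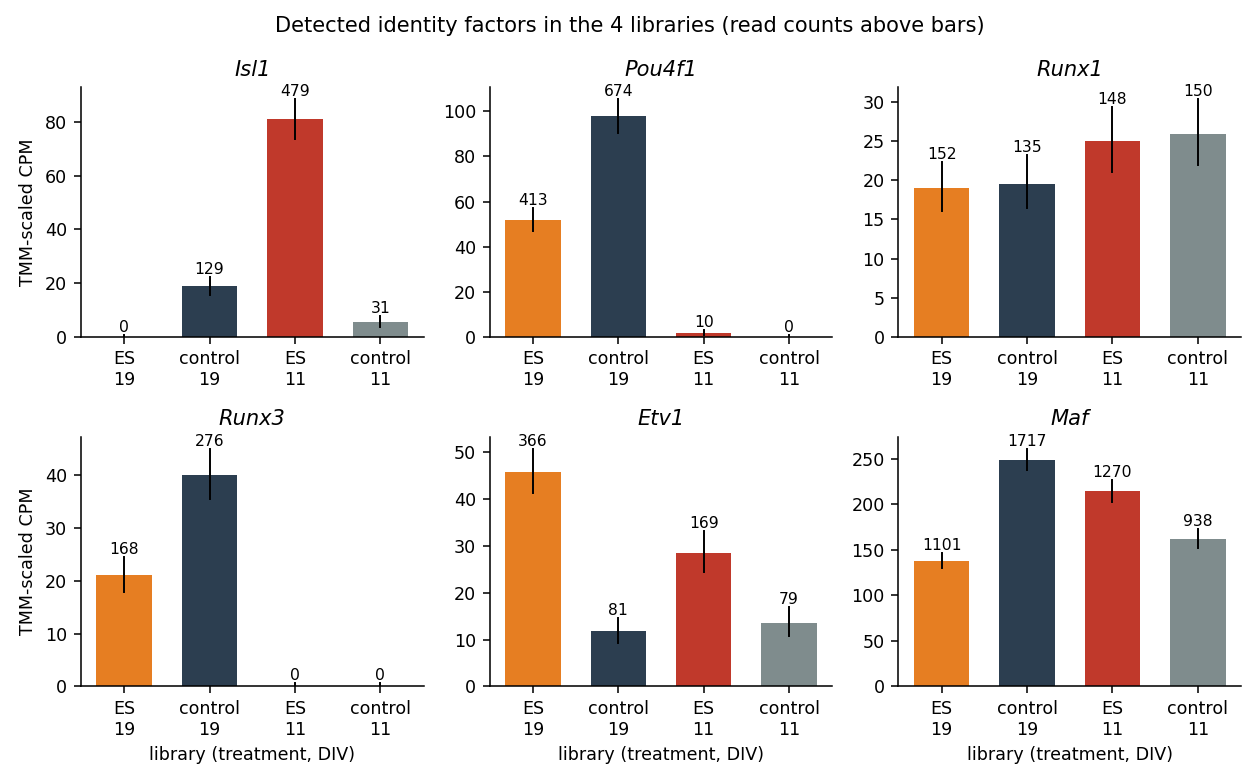
TMM-scaled CPM (y axis, from 0) of the 6 detected identity factors in the 4 libraries (x axis, treatment and DIV). Bars are 1 library each with its read count above, and lines are exact Poisson 95% intervals that cover counting error only. Pou4f1 and Runx3 are at 0 to 10 reads on DIV 11, Runx1 is nearly even at 135 to 152 reads, Isl1 is highest in ES on DIV 11 and Etv1 is higher in both ES libraries.

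Between ES and control the members had no common direction. At 19 DIV the counting rule called 2 of the 6 members with at least 50 reads, Etv1 higher and Isl1 lower, where it called 60.6% of all such rows. Pou4f1, Runx3 and Maf were lower in ES by less than the 2-fold limit, at 0.529, 0.525 and 0.554 times control, and all 3 were higher in ES per pan-neuronal marker level. At 11 DIV the rule called 2 of 4 members, Isl1 and Etv1, both higher, where it called 58.6% of rows. Neither share stood above the background of the rule. The spread-adjusted rule called 0 members on DIV 19, against 0.259% of rows, and 0 members on DIV 11, against 0.315%. In the additive fit 0 of 6 members passed for ES (edgeR called 0% of 10050 rows, with 109 at an unadjusted p below 0.05). DESeq2 called 503 rows (5%) and limma-voom 0 rows (566 at an unadjusted p below 0.05), with no member among them. How the ES difference changed between days could not be tested, since each group was 1 library.

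The comparisons of 19 with 11 DIV share their libraries with the comparisons of ES with control. The counting rule called 3 of 6 members in ES (Pou4f1 and Runx3 higher, Isl1 lower), against 61.4% of rows, and 3 of 6 in control (Pou4f1, Runx3 and Isl1 higher), against 60.8% of rows. By direction, 30.9% of rows were called higher and 30.5% lower in ES, and 30.9% higher and 29.8% lower in control. The spread-adjusted rule called 0 members in ES, against 0.425% of rows, and 0 in control, against 0.618%. Isl1 in control was 3.50-fold higher on DIV 19 (counting interval 2.35 to 5.36, spread-adjusted lower end 0.00102). In ES it was at least 215-fold lower on DIV 19 with 0 put at 3 reads, but the spread-adjusted upper end was 4.69. Maf was at 0.643 times its 11 DIV level in ES (spread-adjusted interval 0.133 to 2.96) and at 1.54 times in control (0.405 to 6.96).

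**Figure D3:**
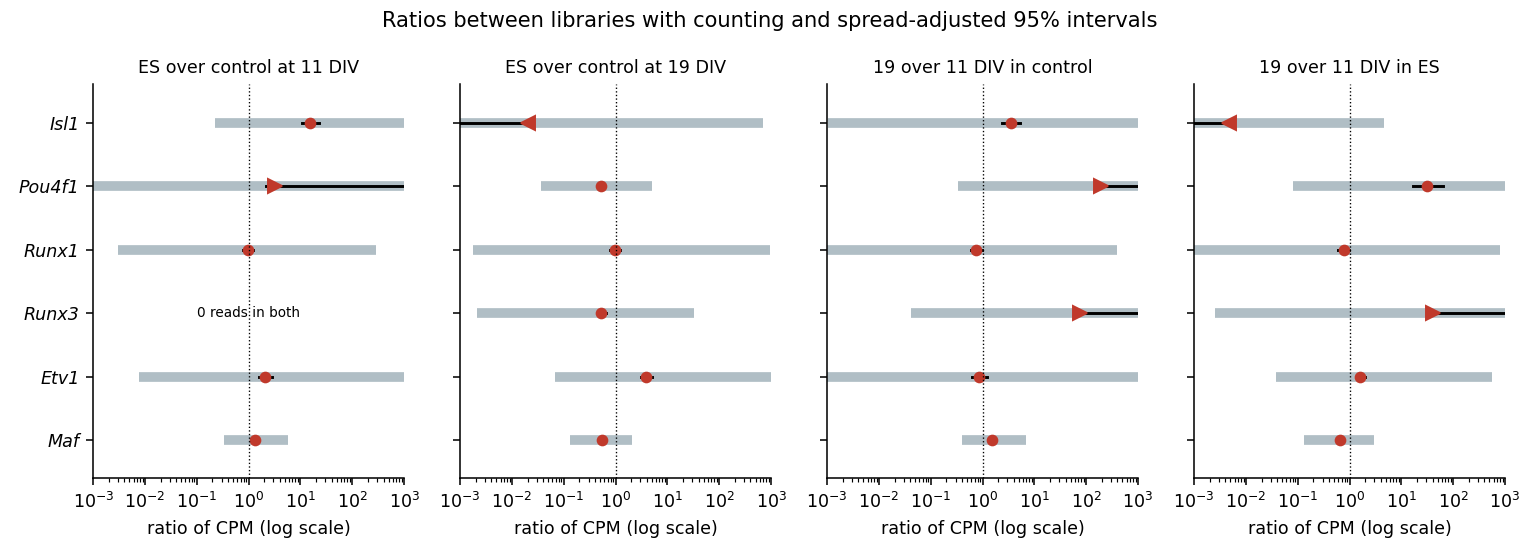
Ratios of CPM between 2 libraries (x axis, log scale) for the 6 detected identity factors (rows) in the 4 comparisons (panels). Red points are ratios, triangles mark bounds against 3 reads where 1 library had 0, black lines are counting 95% intervals and grey bars spread-adjusted 95% intervals, each ended at the axis limits. All grey bars cross equality, while black lines of Isl1, Pou4f1, Runx3 and Etv1 lie to 1 side of it in several panels.

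Other transcription factors of sensory neuron development, 44 genes such as Neurog1, Tlx3, Ebf1 and Klf7, were also unevenly read. Reads were found for 30 of the 44, and 15 had a read in every library. At 19 DIV the counting rule called 5 higher and 10 lower in ES among 23 with at least 50 reads, where 29.4% of all rows were higher and 31.3% lower, with a median log2 difference of -0.34. At 11 DIV it called 12 higher and 3 lower among 23, with a median of 0.77, where 28.9% of all rows were called higher and 29.6% lower and the median over all rows was 0.00. The spread-adjusted rule called 0 of them on either day. Zeb2, the zinc finger factor with the most reads in the list, had an ES level 1.19 times control on DIV 19 (spread-adjusted interval 0.609 to 2.39) and 1.58 times on DIV 11 (0.778 to 3.31). Sox4, which supports neuronal differentiation, was at 1.30 times control on DIV 19 (0.515 to 3.48) and 0.542 times on DIV 11 (0.198 to 1.37).

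Nociceptor and thermoreceptor markers mostly lay lower in ES on DIV 19. By the counting rule 9 were lower and 2 higher among 14 with at least 50 reads, where 31.3% of all rows were lower and 29.4% higher, with a median log2 difference of -1.87. The spread-adjusted rule called 2 lower, Tac1 (the substance P precursor, 0.272 times control, spread-adjusted interval 0.122 to 0.558) and Calca (which encodes the peptide CGRP, 0.331 times, 0.148 to 0.688). On DIV 11, where 28.9% of all rows were higher and 29.6% lower, 8 were higher and 2 lower among 16 with a median of 1.00, and Tac1 passed the spread-adjusted rule as 2.82-fold higher (1.58 to 5.29). Pan-neuronal markers lay on the same sides (their part was not tested). By the counting rule 11 were lower and 0 higher among 19 in ES on DIV 19, and 8 higher and 1 lower among 20 in ES on DIV 11. The spread-adjusted rule called 3 of them lower in ES on DIV 19, Prph (0.376 times control), Stmn2 (0.332 times) and Tubb3 (0.316 times). On DIV 11 it called 1 higher, Sncg (4.78-fold). Over all rows it called 0.259% on DIV 19 and 0.315% on DIV 11.

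Mechanoreceptor markers summed to 294 CPM in ES and 481 CPM in control on DIV 19, and to 501 CPM in ES and 488 CPM in control on DIV 11. The counting rule called 2 higher and 6 lower among 10 in ES on DIV 19 and 3 higher and 3 lower among 11 in ES on DIV 11, near the shares of all rows on DIV 11 (28.9% higher, 29.6% lower; 29.4% and 31.3% on DIV 19), and the spread-adjusted rule called 0. Nefh, the heavy neurofilament chain of large axons, had 583 reads in ES and 677 in control on DIV 19, and 809 in ES and 79 in control on DIV 11. Gfra1, a co-receptor of the Ret kinase, had 38 reads in ES and 506 in control on DIV 19, and 804 in ES and 778 in control on DIV 11. For Nefh the ES level was 0.743 times control on DIV 19 and 10.01 times on DIV 11, and for Gfra1 0.0648 and 1.01 times. Nefh thus lay on the same sides of control as Maf on both days. Gfra1 did so on DIV 19 and was nearly even on DIV 11, and every spread-adjusted interval took in equality.

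Of the 13 proprioceptor markers besides Runx3, Etv1 and Pvalb, 6 had a read and Spp1 and Fxyd7 were read in every library. Ntrk3, the receptor of neurotrophin 3 that marks proprioceptors and some touch neurons, had 1118 reads in ES and 624 in control on DIV 19, against 56 in ES and 0 in control on DIV 11. It lay on the same sides by day as Runx3. The summed list in control was at 0.470 times its 11 DIV level on DIV 19, but it was mostly Spp1. In control Spp1 made 1089 of 1111 CPM on DIV 11 and 393 of 522 CPM on DIV 19. In ES, Ntrk3 was 14.8-fold higher on DIV 19 than on DIV 11, with a spread-adjusted lower end of 0.480. The related receptor Ntrk2, a mechanoreceptor marker named outside the rule for list genes, had 470 reads in ES and 303 in control on DIV 19, against 0 in ES and 43 in control on DIV 11. Spp1, osteopontin, which other cells of the ganglion also make, was 2.78-fold higher in ES on DIV 19 (spread-adjusted interval 1.40 to 5.94) and passed the spread-adjusted rule there, and was at 0.715 times control on DIV 11 (0.394 to 1.28). In control it was at 0.360 times its 11 DIV level on DIV 19 (0.166 to 0.737), lower by the spread-adjusted rule.

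**Figure D4:**
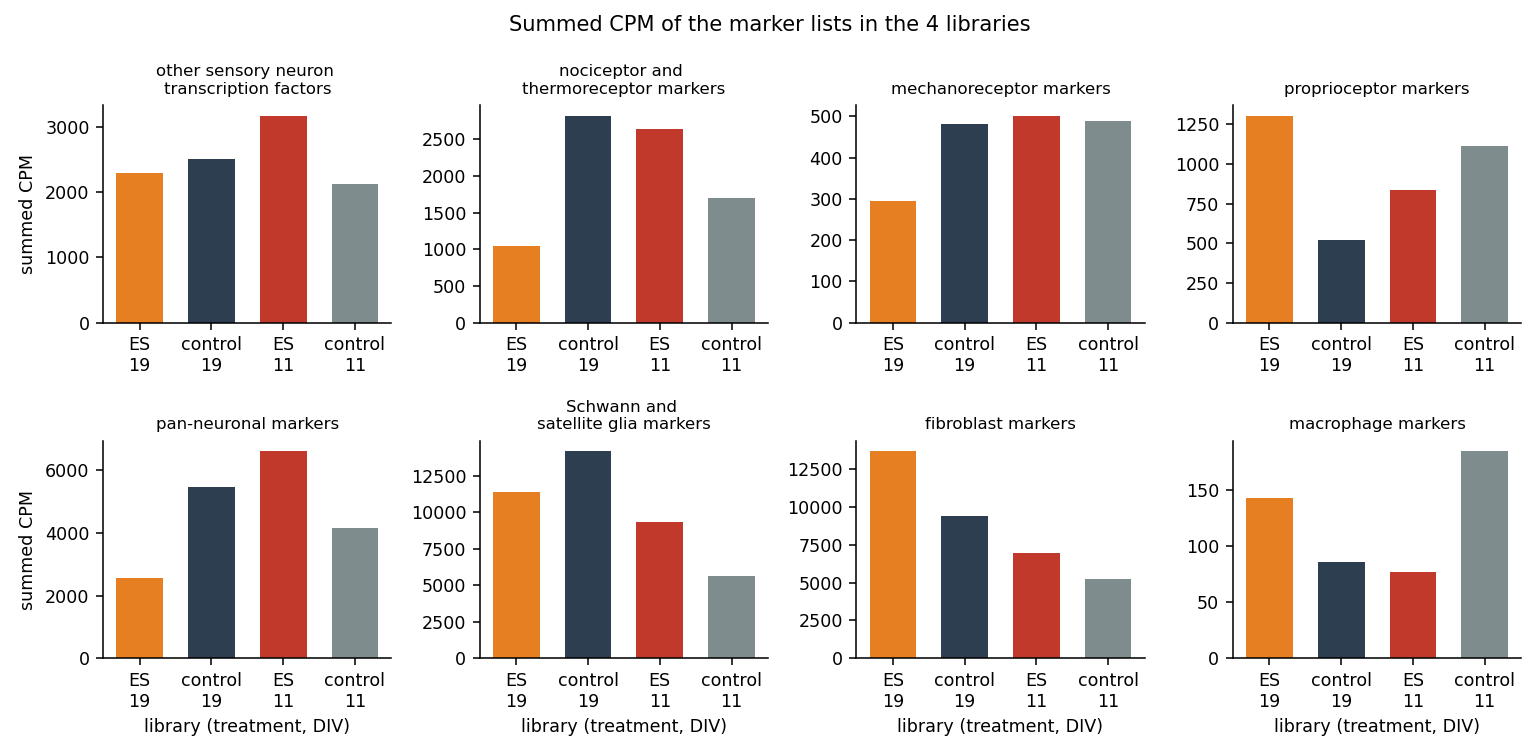
Summed TMM-scaled CPM (y axis, from 0) of 8 marker lists in the 4 libraries (x axis, treatment and DIV), 1 library per bar and no error bar. Pan-neuronal and nociceptor sums are lowest in ES on DIV 19, fibroblast sums are highest there, and macrophage sums stay between 77.1 and 185 CPM.

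The remaining lists hold cells in which members can also be expressed. Schwann and satellite glia markers summed to 11359 CPM in ES and 14173 CPM in control on DIV 19, and to 9323 CPM in ES and 5660 CPM in control on DIV 11. Lymphocyte markers, of a cell type in which Runx1 and Runx3 are known, summed to 0 CPM in ES and 30.0 CPM in control on DIV 19, and to 57.4 CPM in ES and 0 CPM in control on DIV 11, with 7 of 9 genes at 0 in all libraries, and their part in the Runx values was not tested. Endothelial markers ranged from 60.9 to 104 CPM, with Pecam1 and Tek at 0 in each. Skeletal muscle, in which Pvalb is also known, had sums of 2.13 CPM in ES and 2.61 CPM in control on DIV 19, and of 17.7 CPM in ES and 0.173 CPM in control on DIV 11, with Myod1 and Des at 0 in each.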

How the data were processed

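Each library has 1 table of read counts per gene symbol, deposited as whole numbers without normalization. Per the submitters' processing notes, Bowtie2, bedtools and the mouse build mm10 were used, and per the labels' protocols libraries were made with a Lexogen kit named Quant-Seq; whether reads are tags of transcript ends was not settled. Versions, duplicate handling and strand use were not given in the sources used here. Counts were scaled with TMM over the 4 libraries (edgeR 4.0.16, R 4.3.3). Ratios with counting and spread-adjusted intervals described library pairs. The spread factor was the median squared standardized difference over rows with a mean of 500 to 3000 reads, divided by its median under counting error. An additive fit used edgeR's quasi-likelihood test with filterByExpr and Benjamini-Hochberg adjustment over all rows, with DESeq2 1.42.0 and limma 3.58.1 as alternatives. Log2 differences used a prior count of 2. Procedures were also run on simulated data. For the additive fits the simulated spread was not matched to these data, so those runs do not vouch for the fits here. Gene positions came from GENCODE M21 (GRCm38, the assembly of mm10) and upstream windows from RefSeq. Named genes were the 10 members and, per list, the 2 genes with the most reads and up to 2 furthest past the spread-adjusted rule. Members and lists were chosen with earlier results of these data known. Python 3.11.15 with scipy 1.17.1 did the rest.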

Additional observations from a re-analysis of the deposited data

Results flagged for a closer look

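The ES difference lay on opposite sides of control on the 2 days for 3 members. With 1 library per group any such change of side is picked out, and the difference between days was not tested. For Isl1 the log2 difference of ES and control at 19 DIV minus that at 11 DIV was -9.98, for Pou4f1 -3.49 and for Maf -1.26. The Pou4f1 value rests on 10 reads in ES and 0 in control at 11 DIV, and of these 3 only Isl1 passed the counting rule on both days. With prior counts of 0.5 and 10 in place of 2, the Pou4f1 value was -5.29 and -1.89. No group had enough libraries for an outlier test.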

How the results depend on the processing

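No member passed the spread-adjusted rule under TMM, RLE, upper quartile or total count scaling, without Rn45s, or with a 95% interval in place of 99%, a choice added after seeing the data. Counting-rule calls did not change with scaling or a 99% interval. With at least 200 reads, 1 of 4 members was called for ES against control at 19 DIV (54.1% of rows) and 1 of 2 at 11 DIV (51.2%), and at 3-fold 1 of 4 at 11 DIV (44.2%). At 1.5-fold, 5 of 6 were called for ES against control at 19 DIV (74.2% of rows) and 5 of 6 for 19 against 11 DIV in ES (75.1%). Across all rows edgeR called 0 for ES and 0 for day, and DESeq2 503 and 832. The day effect had 2 members past the threshold with DESeq2 and 0 in every other fit. The split by day held for 1 member at limits of 0 and 100 reads and for 1 at 10 and 200 reads, limits added after seeing the data. Of 138 log2 differences under other priors and scalings, 8 moved beyond the counting interval and 1 changed sign (Runx1, ES against control at 11 DIV, 0.08 with total counts). Leaving out the pair of 1 day or treatment gives the per-comparison values of the report, with no residual degrees of freedom. No paired analysis was possible because the labels carry no replicate numbers and each group is 1 library. With 1 molecule estimated at 104.1 to 157.6 reads, all members but Maf would rest on a few molecules per library. That estimate holds only if the 0 counts behind it came from sampling.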
